A study of Mus musculus with 4 samples.

Results

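The transcription factors described here are 10 regulators of the trophoblast: Cdx2, Gata3, Tead4, Tfap2c, Eomes, Elf5, Ets2, Gata2, Hand1 and Tfap2a. They were chosen by name, as the non-control spots of the arrays that carry one of these symbols or the older names Tcfap2a and Tcfap2c, and they are 10 of 21401 genes tested. RNA came from ZHBTc4 mouse embryonic stem (ES) cells, a line in which the Oct4 (Pou5f1) protein is supplied by a transgene that doxycycline shuts off. The cells had left irradiated fibroblast feeders for gelatin 2 passages earlier. One group received 2 µg doxycycline for 48 h (dox, titled as the control by the labels) and the other received doxycycline with TCP (dox+TCP), and each had 2 biological replicates. The labels do not spell out TCP; in work on the histone demethylase LSD1, which the study's title names, it usually stands for tranylcypromine. On all 4 arrays Cy5 carried a treated sample, and Cy3 carried the reference, RNA of the same line for which the labels list no treatment. Every value comes from 1 cell line, dyes were not swapped, and TCP was not given without doxycycline. A dye effect and a treatment effect therefore cannot be told apart in the ratios to the reference.

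The trophoblast is the first lineage to separate from the embryo proper, and it forms the placenta. In the outer cells of the early embryo, Tead4 acts with the co-activator Yap, whose activity the Hippo pathway restrains, to switch on Cdx2, and Gata3 acts beside Cdx2. Tfap2c, Eomes, Elf5 and Ets2 maintain trophoblast stem cells together with Cdx2, and Gata2, Hand1 and Tfap2a are used as these cells differentiate. Oct4 and Cdx2 repress each other, and ES cells that lose Oct4 turn toward trophoblast. Several of the factors also act elsewhere, Gata2 in blood, Gata3 in T cells, Hand1 in the heart and Eomes in the primitive streak.

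The 10 genes had 12 probes, each of 60 bases where the annotation lies in 1 block, on mouse build mm7 (NCBI35). The probe used for each gene lies at chr5:146195375-146195434 for Cdx2, chr2:9796514-9796573 for Gata3, chr6:128250598-128250657 for Tead4, chr2:172351014-172351073 for Tfap2c, and chr9:118163832-118163891 for Eomes. It lies at chr2:103301588-103301647 for Elf5, chr16:96027208-96027267 for Ets2, chr6:88281461-88281520 for Gata2, chr11:57910385-57910444 for Hand1, and chr13:40156450-40156509 for Tfap2a. Each of these 10 probes was well above background on all 4 arrays in both channels. A further Gata2 probe at chr6:88281934-88281993 was tested too, and a further Tfap2a probe was well above background on 0 arrays and left out. Annotation of exons on that build was not used here.

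To show the regulatory sequence of the genes, the 250 bases before the start of transcription were searched on both strands for the short motifs of the factors themselves and of Oct4. RefSeq promoters on GRCm38.p6 matched 7 of the 10 genes, with 10 start sites. For GATA factors the letters were AGATAA (also ending as AGATAG) and TGATAA (also ending as TGATAG). The others were TTTATNG for CDX, CATTCC for TEAD, GCCNNNGGC for AP-2 (Tfap2a and Tfap2c; this motif reads alike on both strands), CCGGAAG for ETS and ATGCAAAT for the octamer that Oct4 recognises. Of 32851 mouse promoters of this length, 26.5% held the GATA letters, 9.81% CDX, 12.6% TEAD, 13.7% AP-2, 6.91% ETS and 1.6% the octamer. The start sites of Cdx2 (chr5:147307250-147307499, minus strand), Gata3 (chr2:9878601-9878850, minus strand), Gata2 (the second of 2 sites, chr6:88198414-88198663, plus strand) and Elf5 (the first of 2 sites, chr2:103411848-103412097, plus strand) are shown because these genes had log2 ratios over 1 on both replicate 1 arrays and held at least 1 match. Capitals mark the matches.
Cdx2: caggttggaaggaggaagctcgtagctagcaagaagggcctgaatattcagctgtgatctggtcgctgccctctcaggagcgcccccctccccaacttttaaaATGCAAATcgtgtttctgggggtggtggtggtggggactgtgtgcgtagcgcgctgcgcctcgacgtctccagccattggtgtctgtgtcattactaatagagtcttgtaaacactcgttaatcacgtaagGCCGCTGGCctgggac
Gata3: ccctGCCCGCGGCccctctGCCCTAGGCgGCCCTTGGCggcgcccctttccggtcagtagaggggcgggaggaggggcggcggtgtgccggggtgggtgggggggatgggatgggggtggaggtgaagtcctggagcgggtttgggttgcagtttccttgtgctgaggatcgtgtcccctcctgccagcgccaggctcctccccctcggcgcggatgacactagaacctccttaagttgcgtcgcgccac
Gata2: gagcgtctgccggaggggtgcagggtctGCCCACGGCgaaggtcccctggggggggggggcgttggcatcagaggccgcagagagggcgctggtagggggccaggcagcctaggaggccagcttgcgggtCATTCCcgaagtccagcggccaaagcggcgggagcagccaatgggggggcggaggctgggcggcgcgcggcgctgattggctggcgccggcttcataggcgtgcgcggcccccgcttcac
Elf5: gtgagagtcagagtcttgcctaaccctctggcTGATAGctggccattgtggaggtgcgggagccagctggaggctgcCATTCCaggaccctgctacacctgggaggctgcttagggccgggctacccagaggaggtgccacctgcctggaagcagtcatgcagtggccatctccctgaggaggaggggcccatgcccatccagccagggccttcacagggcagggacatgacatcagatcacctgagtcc

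The Cdx2 sequence holds 1 octamer and 1 AP-2 match, the Gata3 sequence 3 AP-2 matches, the Gata2 sequence 1 TEAD and 1 AP-2 match, and the Elf5 sequence 1 GATA and 1 TEAD match. The other start sites of Gata2 and Elf5 and those of Eomes, Ets2 and Tfap2a hold none of these letters. A match is a description of the letters in this window and not a measured binding site.

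The shut-off itself was measured by Pou5f1, with log2 ratios to the reference of -3.38 and -3.62 in the dox replicates and of -3.29 and -3.28 in the dox+TCP replicates. It fell in both groups (limma adjusted p = 0.0104 and 0.0146). Median signals per array were 213 to 249 in Cy5 and 108 to 141 in Cy3, over median local backgrounds of 53.5 to 60 in Cy5, and no non-control spot was saturated. With 2 arrays a group, the number of arrays limits the precision. The replicate 1 arrays of both groups shared a slide, the replicate 2 arrays lay on a slide each, and dox+TCP replicate 2 was scanned on another day than the other 3.

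After 48 h of doxycycline, Gata2, Cdx2, Tfap2c, Gata3 and Elf5 had mean log2 ratios over 1 against the reference, and the other 5 factors lay between -0.30 and 0.36. None of the 10 factors passed the test of all genes in limma at an adjusted p of 0.05, while 14.6% of all genes tested did. Unadjusted, 3 of the 10 were under 0.05, namely Gata2, Gata3 and Ets2, as were 7019 of the 21401 genes tested. Above 0 were 6 of 10 factors against 49.8% of all genes, and their median was 0.73 against -0.0011 over all genes. The spread behind these means was wide, since the median of the 10 factors was 1.28 on replicate 1 and 0.14 on replicate 2.

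Cdx2, the homeobox factor that specifies trophectoderm, had log2 ratios of 3.39 and 0.73 on dox replicates 1 and 2. It was above the reference on both arrays, with a much smaller difference on replicate 2. The limma mean was 2.06 ± 0.98 (SE, n = 2; 95% interval -0.71 to 4.83; adjusted p = 0.252). Here and below, the SE rests on a spread shared by both groups and moderated over all genes, and not on the 2 arrays of the group alone. Scanned intensities of Cdx2 in the treated cells were 12691 and 5071, beside 533 and 1228 in the reference on the same arrays. Gata3, a zinc finger factor that acts beside Cdx2, had log2 ratios of 2.07 and 0.96. Its mean of 1.52 ± 0.32 (SE, n = 2; 95% interval 0.60 to 2.43) came close to the threshold without passing it (limma adjusted p = 0.0613). Tead4, which acts before Cdx2 in the embryo, had log2 ratios of -0.19 and -0.41, slightly below the reference on both arrays, with a mean of -0.30 ± 0.13 (SE, n = 2; limma adjusted p = 0.228) that turned to 0.17 when arrays were centred on their median in place of loess.

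Among the factors that maintain trophoblast stem cells, Tfap2c and Elf5 had their high ratios on replicate 1, and Elf5 was at the reference on replicate 2. Tfap2c, also called AP-2 gamma, had log2 ratios of 3.26 and 0.78 and a mean of 2.02 ± 0.75 (SE, n = 2; limma adjusted p = 0.168). Elf5, an ETS-family factor that marks trophoblast stem cells, had log2 ratios of 2.23 and -0.025, so that treated cells and reference had nearly the same level on replicate 2. Its mean was 1.10 ± 0.66 (SE, n = 2; limma adjusted p = 0.348). The Elf5 reference was dim on dox replicate 1, with a scanned intensity of 87.6 against a Cy3 median of 124 on that array. Eomes, a T-box factor, had log2 ratios of -0.39 and 0.040, and its treated and reference levels overlapped. Its mean was -0.17 ± 0.22 (SE, n = 2; limma adjusted p = 0.655). Ets2, needed for trophoblast stem cells to keep dividing, had log2 ratios of 0.48 and 0.24, small but close to each other, with a mean of 0.36 ± 0.12 (SE, n = 2; limma adjusted p = 0.134).

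Of the factors used in differentiation, Gata2 had the highest mean of the 10. Gata2, which with Gata3 drives placental hormone genes in trophoblast giant cells, had log2 ratios of 3.10 and 1.60 on dox replicates 1 and 2, and 3.32 and 1.51 by its other probe. Both arrays and both probes put it above the reference. The mean was 2.35 ± 0.49 (SE, n = 2; 95% interval 0.95 to 3.75; limma adjusted p = 0.0591). Hand1, a basic helix-loop-helix factor of giant cells, had log2 ratios of 0.22 and -0.28, on either side of the reference, with a mean of -0.034 ± 0.19 (SE, n = 2; limma adjusted p = 0.928). Tfap2a had log2 ratios of -0.14 and 0.046 and a mean of -0.047 ± 0.12 (SE, n = 2; limma adjusted p = 0.834). With the scanner software's own log ratio in place of the normalization used here, Gata2 (2.55) and Gata3 (1.64) passed (limma adjusted p = 0.0307 and 0.0316) and the other 8 did not. Over all genes 15.5% passed with that ratio. Leaving out an array sets 1 dox array against the reference, with the spread taken from the dox+TCP arrays. Without dox replicate 2, Gata3 and Gata2 passed at their replicate 1 ratios (limma adjusted p = 0.0388 and 0.0465; 9.69% of all genes), and without dox replicate 1 no factor did (limma adjusted p = 0.0732 for Gata3 at 0.96 and 0.0972 for Gata2 at 1.60; 19.3% of all genes). With median centring Ets2, Gata2, Gata3 and Tfap2c passed, as did 28.1% of all genes, and the median of all genes moved from -0.0011 to 0.18.

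**Figure D1:**
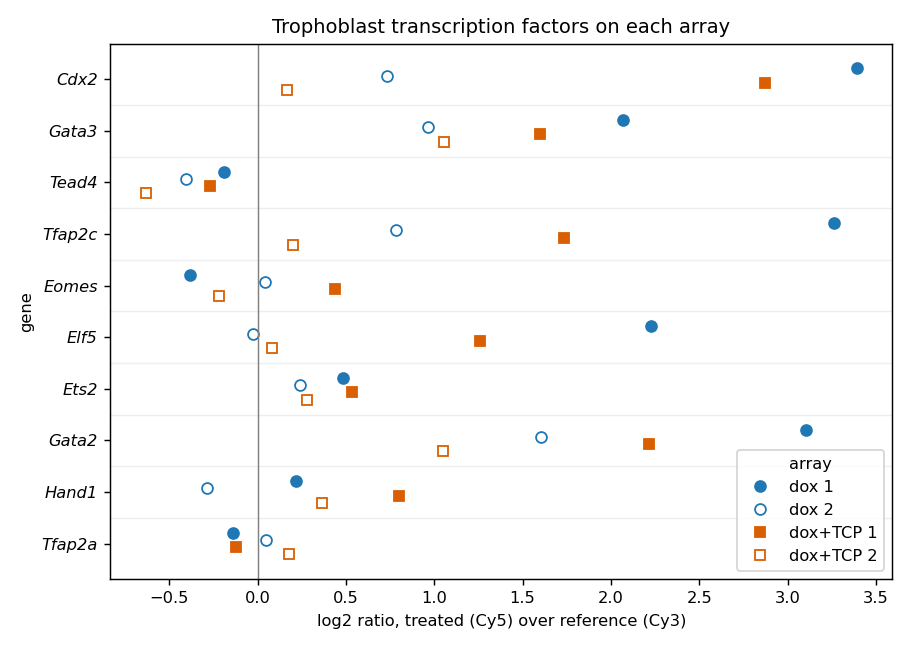
Log2 ratio of treated cells (Cy5) to the reference (Cy3) for each factor on each of the 4 arrays; points are single arrays. Cdx2, Tfap2c, Elf5, Gata2 and Gata3 stand higher on the replicate 1 array than on the replicate 2 array of both groups, with Cdx2 at 3.39 and 0.73 for dox and 2.87 and 0.17 for dox+TCP, while Tead4 lies below 0 on all 4 arrays (its dox mean turned to 0.17 with median centring).

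With doxycycline and TCP together, Gata2, Cdx2 and Gata3 had mean log2 ratios over 1. None of the 10 factors passed (limma adjusted p at 0.05), against 15.4% of all genes. Unadjusted, 5 of the 10 were under 0.05, namely Gata3, Tead4, Gata2, Ets2 and Hand1, as were 7108 of the 21401 genes tested. Above 0 were 9 of 10 factors against 55.1% of all genes. The median of the 10 was 0.63 against 0.033 over all genes, and 1.03 on replicate 1 against 0.19 on replicate 2. Whether both groups were set against the same reference RNA is not given in the labels.

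Cdx2 had log2 ratios of 2.87 and 0.17 on dox+TCP replicates 1 and 2, with a mean of 1.52 ± 0.98 (SE, n = 2; limma adjusted p = 0.369). Gata3 had 1.60 and 1.06, the narrowest gap among the 5 factors with high ratios, with a mean of 1.33 ± 0.32 (SE, n = 2; 95% interval 0.41 to 2.25; limma adjusted p = 0.0765). Tead4 was again below the reference on both arrays, at -0.27 and -0.63, with a mean of -0.45 ± 0.13 (SE, n = 2; limma adjusted p = 0.107). Of the factors that act at the start of the lineage, Gata3 thus stood above the reference on both arrays, Cdx2 was close to it on replicate 2, and Tead4 was below it.

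Tfap2c had log2 ratios of 1.74 and 0.20, with a mean of 0.97 ± 0.75 (SE, n = 2; limma adjusted p = 0.448). Elf5 had 1.26 and 0.083, with a mean of 0.67 ± 0.66 (SE, n = 2; limma adjusted p = 0.543). Both were thus close to the reference on replicate 2. Eomes had 0.44 and -0.22 on either side of 0, with a mean of 0.11 ± 0.22 (SE, n = 2; limma adjusted p = 0.764). Ets2 had 0.53 and 0.28, with a mean of 0.41 ± 0.12 (SE, n = 2; limma adjusted p = 0.105).

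Gata2 had log2 ratios of 2.21 and 1.05, and 1.93 and 0.66 by its other probe, with a mean of 1.63 ± 0.49 (SE, n = 2; 95% interval 0.23 to 3.03; limma adjusted p = 0.114). Hand1 had 0.80 and 0.36, above the reference on both arrays, with a mean of 0.58 ± 0.19 (SE, n = 2; 95% interval 0.054 to 1.11; limma adjusted p = 0.126). Tfap2a had -0.12 and 0.18, with a mean of 0.028 ± 0.12 (SE, n = 2; limma adjusted p = 0.896). By the scanner software's log ratio only Gata3 passed (1.35; limma adjusted p = 0.0481), beside 16.3% of all genes. Without either dox array, which changes the estimate of the spread and not the ratios, Gata3 and Gata2 passed (limma adjusted p = 0.0186 and 0.0398 without dox replicate 1, and 0.0186 and 0.0397 without dox replicate 2), beside 27.7% and 27.8% of all genes.

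The gap between replicates was examined in each channel on its own, on a log2 scale of intensities made comparable between arrays. The reference channel of Cdx2 was at 9.41 and 9.07 on the replicate 1 arrays of dox and dox+TCP and at 11.04 and 10.38 on the replicate 2 arrays. For Elf5 it was at 7.08 and 7.11 on replicate 1 and at 8.73 and 8.37 on replicate 2. For Tfap2c it was at 11.64 and 11.53, and at 13.08 and 13.30. In all 3 the reference cells of replicate 2 were brighter on both arrays, without overlap. Gata2 (9.64 and 8.94 against 10.86 and 10.66) and Gata3 (9.88 and 9.94 against 10.90 and 11.21) had the same order. These reference cells carried no named treatment and the labels do not say whether the replicates came from the same culture.

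Averaged over both groups, the reference was brighter on replicate 2 than on replicate 1 by 1.60 for Tfap2c, 1.47 for Cdx2 and Gata2, 1.46 for Elf5 and 1.15 for Gata3 on the log2 scale. Hand1 (0.71) and Tfap2a (0.51) followed, then Tead4 (0.27) and Ets2 (0.22), and Eomes differed by -0.15. The median over the 10 factors was 0.93 against 0.072 over all genes, and 7 of 10 factors exceeded 0.5, as did 7.96% of all genes. In the treated channel the same difference had a median of -0.024 over the factors and 0.089 over all genes, and 1 of 10 exceeded 0.5 against 9.99% of all genes. The arrays with the brighter reference are on other slides than the replicate 1 arrays, and slide and culture cannot be told apart here.

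**Figure D2:**
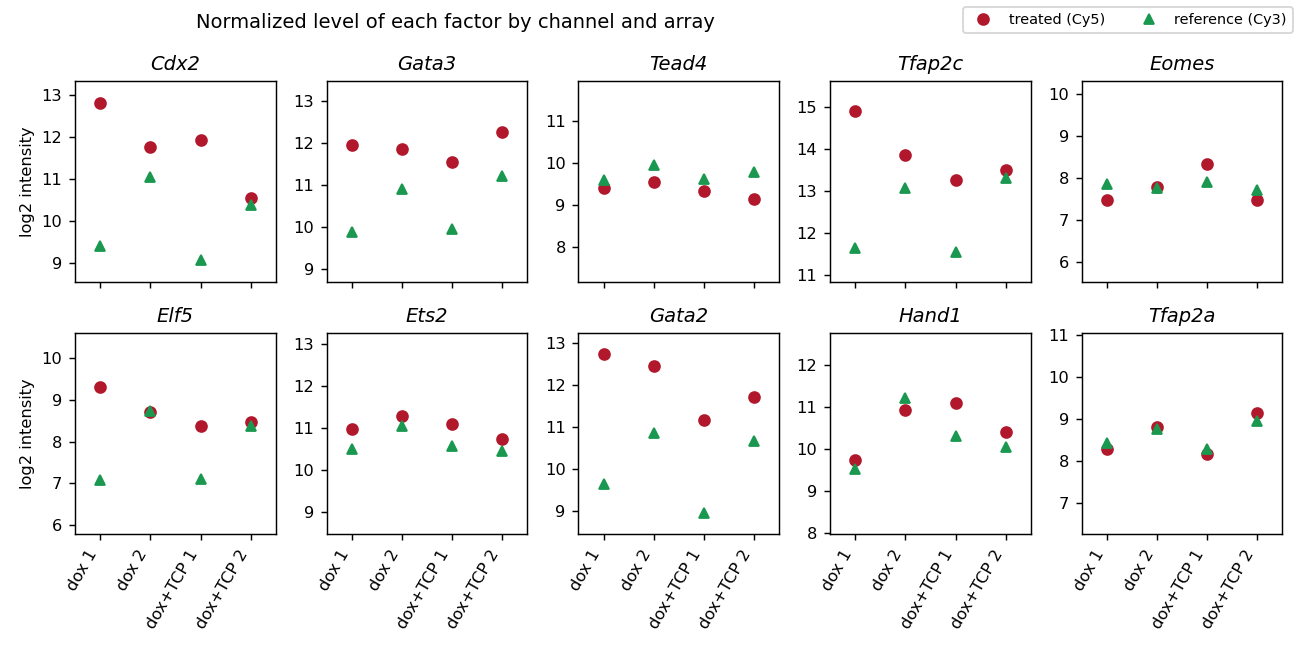
Normalized log2 intensity of each factor in the treated cells (circles, Cy5) and the reference cells (triangles, Cy3) on each of the 4 arrays; each panel has its own axis. In the Cdx2, Gata3, Tfap2c, Elf5 and Gata2 panels the reference lies lower on both replicate 1 arrays than on both replicate 2 arrays, as for Elf5 at 7.08 and 7.11 against 8.73 and 8.37.

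The gap between replicates in a ratio is the sum of the gaps in its channels. For dox, Gata2 had a gap of 1.50, of which 1.22 lay in the reference and 0.28 in the treated cells, and Gata3 a gap of 1.10, of which 1.02 lay in the reference and 0.082 in the treated cells. The treated dox cells of Gata3 thus had nearly one level, 11.95 and 11.86. For Cdx2 the gap of 2.66 had a share of 1.03 in the treated cells as well, with levels of 12.80 and 11.77, and for Tfap2c the gap of 2.48 had a share of 1.04, with levels of 14.90 and 13.86. Elf5 had a gap of 2.25, with 1.65 in the reference and 0.60 in the treated cells. Hand1 went another way: its treated level was 9.75 and 10.94 and its reference level 9.54 and 11.22 on dox replicates 1 and 2, so that both channels differed by over 1 and the ratio stayed near 0.

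In dox+TCP the treated levels of Gata3, Tfap2c, Elf5 and Gata2 were higher on replicate 2 (12.27, 13.50, 8.45 and 11.71) than on replicate 1 (11.54, 13.27, 8.37 and 11.16), opposite to their ratios. Cdx2 was the exception among these 5, at 11.94 on replicate 1 and 10.54 on replicate 2. Set against the mean reference of the replicate 1 arrays, Cdx2, Elf5, Gata2, Gata3 and Tfap2c passed in both groups (5 of 10 factors each), beside 14.4% of all genes with dox and 15.2% with dox+TCP. Against the mean reference of the replicate 2 arrays, Gata2 alone passed with dox (1.84; limma adjusted p = 0.00939) and 0 of 10 with dox+TCP, beside 9.34% and 8.98% of all genes. Both choices were made after seeing the data, and their tests leave out the spread of the reference.

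**Figure D3:**
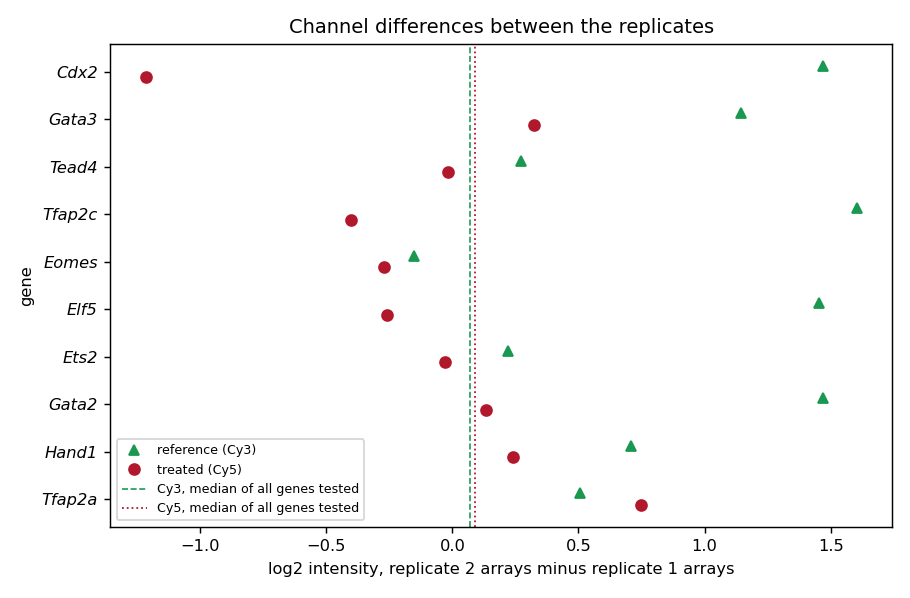
Difference in log2 intensity between the replicate 2 and the replicate 1 arrays for each factor, averaged over both groups, in the reference channel (triangles) and the treated channel (circles), with the median of all genes tested as a line for each. The reference differences reach 1.60 for Tfap2c and exceed 0.5 for 7 of the 10 factors, while the treated differences exceed 0.5 for Tfap2a alone (0.75) and reach -1.21 for Cdx2.

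The comparison of dox+TCP with dox asks whether TCP altered these factors during the shut-off of Oct4. None of the 10 factors passed, as 0% of all genes did (limma adjusted p = 0.996 for each factor), and 0 of the 10 were under 0.05 unadjusted, against 943 of all genes. The differences ran from -1.05 for Tfap2c to 0.62 for Hand1 on the log2 scale, 4 of 10 were above 0 against 59.3% of all genes, and their median was -0.17 against 0.040. The intervals were wide enough to hold changes of over 1 in either direction for Cdx2, Tfap2c, Elf5, Gata2 and Gata3. A change of that size was thus not detectable in this fit. The fit does not pair arrays by replicate number, so differences of the reference between replicates count toward its spread.

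Tfap2c had a mean difference of -1.05 ± 1.06 (SE; 95% interval -4.07 to 1.97), with -1.53 between the replicate 1 arrays on their shared slide and -0.58 between the replicate 2 arrays. Gata2 had -0.72 ± 0.70 (SE; 95% interval -2.70 to 1.26), with -0.89 and -0.56. Cdx2 had -0.54 ± 1.38 (SE; 95% interval -4.46 to 3.37), with -0.52 and -0.57. All 3 were lower with TCP on both pairs of arrays, as was Tead4 at -0.083 and -0.23 (mean -0.15 ± 0.19, SE). That made 4 of 10 factors lower on both pairs, against 21.6% of all genes.

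Hand1, Ets2 and Tfap2a were higher with TCP on both pairs, 3 of 10 against 33.0% of all genes. Hand1 had a mean difference of 0.62 ± 0.26 (SE; 95% interval -0.13 to 1.36), with 0.58 between the replicate 1 arrays and 0.65 between the replicate 2 arrays. Its treated levels alone were 1.36 higher between the replicate 1 arrays and 0.52 lower (-0.52) between the replicate 2 arrays, so the ratio and the treated channel did not have the same order on replicate 2. The Hand1 reference was at 9.54 beside dox and 10.31 beside dox+TCP on replicate 1, and at 11.22 and 10.05 on replicate 2. The higher ratio on replicate 2 thus lay in a lower reference and not in a higher treated level. Ets2 had 0.047 ± 0.17 (SE; 95% interval -0.43 to 0.52) and Tfap2a 0.075 ± 0.17 (SE; 95% interval -0.40 to 0.55), the narrowest intervals of the 10. Gata3 (-0.47 and 0.093), Elf5 (-0.97 and 0.11) and Eomes (0.83 and -0.26) had opposite signs on the 2 pairs.

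In the treated channel alone, 5 of 10 factors were lower with TCP on both pairs and 0 were higher on both. These were Cdx2 (-0.86 and -1.23), Gata2 (-1.59 and -0.75), Tfap2c (-1.63 and -0.36), Elf5 (-0.93 and -0.25) and Tead4 (-0.058 and -0.41). The share of all genes lower on both pairs in this channel was not computed. The reference of Gata2 on the shared slide was itself lower by 0.70 beside dox+TCP (-0.70), and that of Hand1 higher by 0.77. On that slide the reference of the remaining factors but Cdx2 (-0.34) differed by less than 0.13. Between the replicate 2 arrays, the reference was lower beside dox+TCP than beside dox for Cdx2 (10.38 against 11.04) and Elf5 (8.37 against 8.73). It was also lower for Gata2 (10.66 against 10.86) and Tead4 (9.78 against 9.96), and higher for Tfap2c (13.30 against 13.08). No factor passed on the treated levels alone either (limma).

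**Figure D4:**
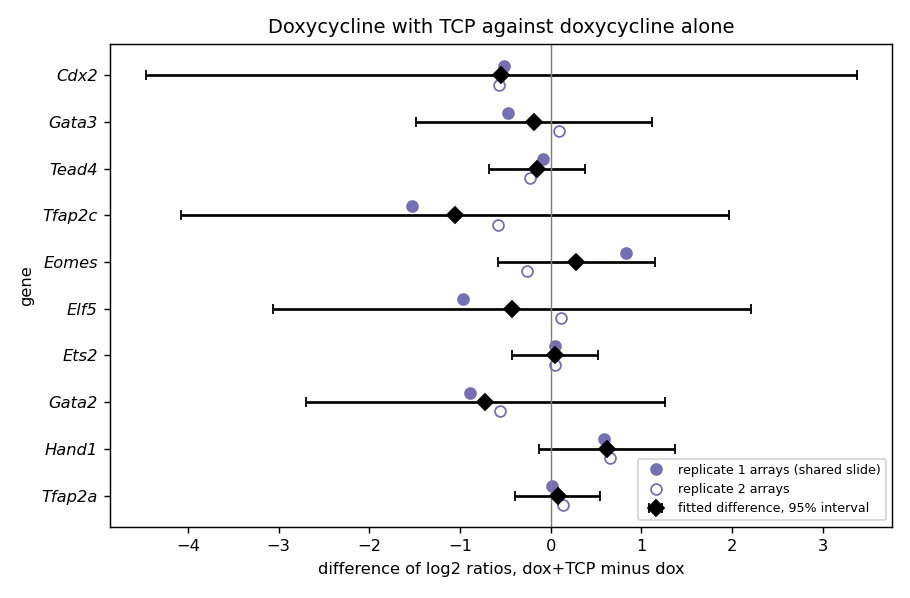
Difference in log2 ratio between dox+TCP and dox for each factor; the bar is the 95% interval of the limma fit, and the small points are the differences between the replicate 1 arrays on their shared slide and between the replicate 2 arrays. Every interval holds 0, and those of Cdx2 (-4.46 to 3.37) and Tfap2c (-4.07 to 1.97) are the widest.

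The partners and upstream signals of these factors formed a list of 24 genes, of which 23 were tested. With dox, 5 rose and 3 fell (limma adjusted p under 0.05), against 6.34% and 8.29% of all genes, and the list's median was 0.31. Of the Hippo and TEAD members, Amotl2, an inhibitor of Yap, rose with log2 ratios of 1.65 and 1.46 (mean 1.56, limma adjusted p = 0.014), and the kinase Lats2 (0.68) and Tead2 (1.00) rose too, beside the Tead4 values of -0.19 and -0.41. Yap1 (0.13), Wwtr1 (0.66), Lats1 (0.31), Tead1 (0.57), Tead3 (0.28) and Nf2 (-0.50) did not pass. Zfpm1, the cofactor FOG1 that binds GATA factors, rose with 1.30 and 1.49 (mean 1.39, limma adjusted p = 0.021), and Gata1 rose by 1.08. Klf5 (-1.76), Dppa4 (-1.44) and the ligand Bmp4 (-1.29), all expressed in ES cells, fell. Fgfr2, the FGF receptor of trophoblast stem cells, had 1.78 and 0.61 and did not pass.

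With dox+TCP, 5 genes of that list rose and 2 fell, against 7.32% and 8.12% of all genes, with a median of 0.36. Zfpm1 (2.08 and 1.63; mean 1.86), Gata1 (1.32), Amotl2 (1.10), Tead2 (0.90) and Lats2 (0.57) rose, and Bmp4 (-1.26) and Dppa4 (-1.26) fell. Between dox+TCP and dox 0 of 23 passed, and the smallest unadjusted p belonged to Amotl2 (-0.45) and Satb1 (-0.58; limma adjusted p = 0.996 for both).

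Other genes of trophoblast stem cells and placenta, 25 tested of 30, had a median of 1.28 with dox and 1.29 with dox+TCP. With dox 4 rose and 0 fell, against 6.34% and 8.29% of all genes, and with dox+TCP 5 rose and 0 fell, against 7.32% and 8.12%. Between the groups 0 passed. The homeobox gene Msx2 had log2 ratios of 2.22, 2.21, 2.30 and 1.49 on dox replicates 1 and 2 and dox+TCP replicates 1 and 2 (limma adjusted p = 0.0201 with dox). Bmp8b (1.46), Cited1 (1.28) and Ovol2 (1.08) rose with dox, and Id2 (0.97) joined these 4 with dox+TCP. The other 21 had wider gaps or small ratios, as Esx1, with 4.79 and 2.32 on the dox arrays (limma adjusted p = 0.0874). The reference of 23 of the 25 was brighter on replicate 2, by a median of 0.85, and their summed reference intensity was 78122 and 80193 on the replicate 1 arrays and 381360 and 403895 on the replicate 2 arrays. The treated cells summed to 534139 to 781441. The list thus had a brighter reference on replicate 2, as Cdx2, Tfap2c, Elf5, Gata2 and Gata3 had.

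Markers of the other cells that the cultures could hold are given for comparison, to be read against 6.34% of all genes higher and 8.29% lower with dox and 7.32% and 8.12% with dox+TCP. Their part in the values of the 10 factors was not tested. Of 14 ES cell genes, 11 fell with dox and 8 with dox+TCP, where Klf2 (1.06) rose; their reference differed between replicates by a median of 0.081, with 8 of 14 brighter on replicate 2. Of 16 primitive endoderm genes, 3 rose and 1 fell in each group, among them Lamb1 (1.84) and Cubn (-2.23) with dox, while the defining factors Gata4 (0.074) and Gata6 (0.17) did not pass. Their reference was brighter on replicate 2 by a median of 0.40, with 13 of 16 brighter and summed intensities of 9790 and 10031 against 13880 and 13208. Of 14 fibroblast genes, which mark feeder cells, 2 fell with dox (Thy1, -1.89, and S100a4, -1.41), and 1 rose and 1 fell with dox+TCP (Pdgfrb, 1.15, and Thy1, -1.12). Their reference differed by a median of -0.52 and was brighter on replicate 2 for 4 of 14. In Cy5, 12 of 14 were well above background throughout, and in Cy3 also 12. Summed reference intensities were 17945 to 26582. Acta2 had the brightest reference of the 14 on every array and so weighed most in these sums. Its Cy3 level rose from 13.39 (dox) and 13.44 (dox+TCP) in replicate 1 to 13.67 and 14.44 in replicate 2. Col1a1 went the other way, from 10.66 and 10.70 to 8.42 and 8.22. The sums thus do not show the direction of most of the list. Of 10 mesoderm and primitive streak genes, Tbx6 rose in both groups (0.96 and 1.25) and the other 9 did not pass. Fewer cells of a type and less RNA per cell cannot be told apart in such bulk samples.

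The genes whose log2 ratios over the 4 arrays lay closest to those of Cdx2, by root mean square distance, were Krt8 (0.290), Sct (0.386), Tfap2c (0.573), Krt7 (0.574) and Rhox9 (0.580). Krt8 had 3.94, 0.56, 2.91 and 0.21 beside the 3.39, 0.73, 2.87 and 0.17 of Cdx2. Tfap2c was the one member of the 10 among these 5. Among those close to Gata3 were Efhd2 (0.0528), Zxdc (0.108), Elf3 (0.114) and Wdr72 (0.157). Efhd2 had 2.09, 0.95, 1.70 and 1.05 beside the 2.07, 0.96, 1.60 and 1.06 of Gata3. With 4 values for each gene, the distances are a description.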

How the data were processed

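The 4 arrays (2-colour, Agilent, 2 for each group) were read as deposited: spot intensities on a linear scale that, per the file headers, Agilent Feature Extraction 10.1.1.1 produced with annotation on mm7. That software also wrote a dye-normalized log10 ratio, Cy5 to Cy3, for each spot, per the file headers, and the authors' deposited series matrix holds the same log10 values within 0.005. Per the labels, 1 µg of total RNA was labelled from an oligo-dT primer. Other upstream steps were not stated there.

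Of 45018 spots, 1639 control spots had weight 0. Where a spot's local background exceeded 2 times the median of its array and channel (11 to 112 spots), that median took its place. limma 3.58.1 (R 4.3.3) corrected background by normexp with offset 50, then normalized by loess within arrays, and Aquantile between arrays made single-channel levels comparable. Outlier spots were set to missing and spots of a probe averaged. A probe entered the test when well above background in Cy5 on the 2 arrays of either group, or in Cy3 on all 4 (31095 probes, 21401 genes), and the brightest stood for its gene. Symbols were updated through RefSeq names on GRCm38.p6 (22951 probes by accession, 6659 by symbol, 3109 by synonym, 8455 kept).

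limma fitted a mean per group over all 4 arrays (2 residual and 1.79 prior degrees of freedom), with p-values adjusted by Benjamini-Hochberg over all genes at 0.05, two-sided. The fit was tested on simulated data. The 10 factors, the gene lists and the background limit were chosen with earlier results of these data known. Named beside the 10 factors and Pou5f1 were, from each list and comparison, up to 4 genes that passed, by size of the log2 ratio, or else the 2 with the smallest p, and the 5 genes nearest to Cdx2 and to Gata3. Not all of these are described, and 1 is not reported here. Fgfr2, Esx1, Gata4, Gata6, Acta2, Col1a1, Yap1, Wwtr1, Lats1, Tead1, Tead3 and Nf2 fell outside this rule. So did Lats2, Tead2, Bmp4 and Gata1 with dox and Id2, Klf2, Amotl2, Tead2 and Lats2 with dox+TCP. All of these outside the rule were picked after seeing their values. The alternatives tried were the background, normalization, probe, array, block and reference choices.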

Additional observations from a re-analysis of the deposited data

How the results depend on the processing

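Of the 10 factors, 0 passed with dox and 0 with dox+TCP against the reference (limma), and these counts moved under several alternatives. With dox, median centring gave 4 (Ets2, Gata2, Gata3 and Tfap2c), the scanner log ratio and the deposited series matrix gave 2 each (Gata2 and Gata3), and leaving out each array in turn gave 0 to 2, with 2 without dox replicate 2. With dox, Cy5 against the mean Cy3 of all 4 arrays gave 5 (Cdx2, Elf5, Gata2, Gata3 and Tfap2c), against that of the replicate 1 arrays 5, and against that of the replicate 2 arrays 1. With dox+TCP, median centring gave 4 (Ets2, Gata2, Gata3 and Hand1), the scanner log ratio and the series matrix 1 each (Gata3), the arrays of that group alone 2, leaving out each array 0 to 2, Cy5 against the mean Cy3 of all 4 arrays 2 and of the replicate 1 arrays 5. Over all 21401 genes, Cy5 against the mean Cy3 of all 4 arrays gave 2358 with dox and 2347 with dox+TCP. The alternatives that use a mean Cy3 leave out the spread of the reference, and for the others the cause was not tested. Between dox+TCP and dox, 0 of 10 passed in each of the 16 alternatives run, of which scan day as a block repeats the fit without dox+TCP replicate 2.

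Over all genes, 3130 passed with dox and 3304 with dox+TCP. With local backgrounds as read, without a limit on bright ones, 0 passed in either (1898 and 1964 at an unadjusted p under 0.05). The cause of this was not tested. Without either dox+TCP array or with scan day as a block, 0 passed in both, and 0 passed with the dox arrays alone (5127 to 5134 with dox and 3353 to 3599 with dox+TCP at an unadjusted p under 0.05); the cause was not tested. Scan day as a block is the same fit as leaving out dox+TCP replicate 2, the only array of its day. These fits all take their spread from the 2 dox arrays alone. Median centring gave 6021 with dox, 4883 of them higher, against 1356 higher and 1774 lower before, and moved the median of all genes to 0.18. With dox+TCP it gave 5111, 4004 of them higher, against 1567 higher and 1737 lower. Without dox replicate 2, 2068 passed with dox, and without dox replicate 1, 4114. Without dox replicate 1 or 2, 5928 and 5926 passed with dox+TCP, and 5936 with its own arrays alone. Against the replicate 2 reference, 1998 and 1922 passed.

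The replicate numbers mark no shared culture, batch or day in the labels, so pairing was an alternative. With the replicate block, 4 factors passed with dox (Cdx2, Gata2, Gata3 and Tfap2c), 5 with dox+TCP (Cdx2, Gata2, Gata3, Hand1 and Tead4) and 0 between the groups, and over all genes 4905, 5170 and 0 passed. Deviations of same-numbered arrays from their group means correlated at 0.471 across genes, but with 2 pairs this does not show that the numbers pair the samples.

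Of single factors, Cdx2, Gata3, Tfap2c, Gata2 and Ets2 kept their sign against the reference in each alternative. With local backgrounds as read, the dox means were smaller, at 0.98 for Cdx2, 0.74 for Gata3, 1.36 for Gata2, 0.15 for Ets2 and 0.026 for Elf5, while Tfap2c stood at 1.99. With dox, the mean turned to 0.17 for Tead4, 0.49 for Hand1, 0.31 for Tfap2a and 0.036 for Eomes under median centring. The scanner log ratio turned Hand1 to 0.089 and Tfap2a to 0.075, and the series matrix turned them to 0.089 and 0.075. Local backgrounds as read turned Eomes to 0.014 and Tfap2a to 0.019. Hand1 turned to 0.066 against the mean Cy3 of all arrays, and Hand1 and Tfap2a to 0.42 and 0.19 against that of replicate 1. Leaving out an array gave -0.025 to 2.23 for Elf5, -0.39 to 0.040 for Eomes, -0.28 to 0.22 for Hand1 and -0.14 to 0.046 for Tfap2a. With dox+TCP, Elf5 and Tfap2a turned to -0.14 and -0.21 against the Cy3 of replicate 2, and Tfap2a to -0.12 with scan day as a block. Leaving out an array gave -0.22 to 0.44 for Eomes and -0.12 to 0.18 for Tfap2a.

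Between dox+TCP and dox, with local backgrounds as read Cdx2 turned to 0.17, Elf5 to 0.11, Gata3 to 0.39, Tead4 to 0.15 and Tfap2a to -0.015. With scan day as a block, Cdx2 turned to 0.81, Elf5 to 0.16, Gata3 to 0.083, Tead4 to 0.026 and Tfap2a to -0.075. Ets2 turned to -0.13 with median centring, -0.044 with the scanner log ratio, -0.044 with the series matrix and -0.22 by Cy5 levels alone. Eomes was 0.83 within the shared slide. Leaving out an array gave -1.90 to 0.81 for Cdx2, -1.56 to 0.70 for Elf5, -0.047 to 0.61 for Eomes, -0.080 to 0.17 for Ets2 and -1.47 to 0.028 for Gata2. It gave -0.74 to 0.36 for Gata3, -0.34 to 0.026 for Tead4, -0.075 to 0.22 for Tfap2a and -2.29 to 0.19 for Tfap2c. Slide as a random block was not run, because 4 arrays are too few for limma to estimate it, and slide as a fixed term leaves no residual degrees of freedom.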
